A study of Mus musculus with 12 samples.

Results

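The genes described here are 4 that mark horizontal cells of the mouse retina (Lhx1, Calb1, Onecut1 and Onecut2) and 3 that encode connexins of retinal neurons (Gja10, Gjd2 and Gjc1). They were chosen by symbol from the 37991 genes of the deposited tables, and all 7 were found, on autosomes, as protein-coding genes. The libraries were made from retinas of male mice at 8 weeks of age, with 3 libraries per group and a pool of 6 to 8 retinas in each. The 4 groups were F0 C57BL/6J, the standard inbred reference strain; F0 Cast/EiJ, a wild-derived inbred strain; F1 B6xCast, the hybrid with a C57BL/6J father and a Cast/EiJ mother; and F1 CastxB6, the hybrid with the parents exchanged. The mice carried no transgene and received no treatment, and each library averages every retinal cell type. The F0 libraries were sequenced in 1 lane and the F1 libraries in 2.

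In the F0 libraries each gene has 1 value per library, and in the F1 libraries it has 1 value for each parental allele. Comparing the F0 strains asks whether the strains differ in the level of a gene. Comparing the Cast allele with the B6 allele in the F1 libraries asks whether they still differ when both sit in the same cells. Count equivalents are the reads that the authors' MMSEQ model assigned to a gene, normalized by them across libraries, and all log2 differences below are from log2 of count equivalents plus 1 unless another measure is named. Levels are given in FPKM, the exponential of the deposited log expression, and for an F1 library as the mean of its 2 allele columns, which are each scaled like a whole library. Unique hits are the read pairs that MMSEQ could place on 1 gene alone, and for F1 libraries on 1 allele of it. They summed to between 8158534 and 12363291 per library. Within a group, Pearson's r across 12160 genes on the log2 FPKM scale lay between 0.966 and 0.980. Whether a library stood apart from its group was not tested. On autosomes the Cast allele took between 49.5% and 49.6% of unique hits in each F1 library.

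Horizontal cells are the interneurons of the outer retina. They receive input from rods and cones and feed inhibition back to them, which sets the surround of the photoreceptor signal. Onecut1 and Onecut2 encode homeodomain factors with a cut domain that direct early retinal progenitors towards the horizontal cell fate and keep these cells alive, and Lhx1 encodes a LIM-homeodomain factor that later places them in their layer. Calb1 encodes calbindin, a calcium-buffering protein used to stain horizontal cells, which amacrine and ganglion cells also make. Connexins form gap junctions, the channels that couple neighbouring cells. Gja10 encodes the connexin that couples horizontal cells to each other, Gjd2 the main neuronal connexin, found between AII amacrine cells, cones and other neurons, and Gjc1 a connexin found at AII amacrine to bipolar cell junctions and in some ganglion cells. Horizontal cells are a small share of retinal cells, and in bulk tissue fewer cells of a type and less RNA per cell cannot be told apart.

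The promoters of 3 members are shown. Lhx1 was chosen for its strain difference, and Calb1 for an allele difference seen in read counts. Gja10 was chosen as the connexin most restricted to horizontal cells. No Cast/EiJ sequence was compared, and the part of these promoters in any difference was not tested. Each is the C57BL/6J reference of build NCBIM37 over the 250 bases before the gene's 5′ end in the deposited tables, read 5′ to 3′ on the gene's strand. Capitals mark a match on either strand to ATCAAT or ATCGAT, core letters bound by ONECUT factors, or TAATTA, core letters bound by LIM-homeodomain factors. None of the 3 motifs contains another, and ATCGAT and TAATTA read the same on both strands. The Lhx1 window lies at chr11:84339518-84339767 on the minus strand, the Calb1 window at chr4:15808161-15808410 on the plus strand and the Gja10 window at chr4:32689736-32689985 on the minus strand.
Lhx1: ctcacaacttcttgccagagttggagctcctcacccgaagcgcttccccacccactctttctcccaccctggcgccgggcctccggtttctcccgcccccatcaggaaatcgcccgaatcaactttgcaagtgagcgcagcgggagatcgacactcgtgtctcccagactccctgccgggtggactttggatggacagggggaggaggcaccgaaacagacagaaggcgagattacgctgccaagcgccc
Calb1: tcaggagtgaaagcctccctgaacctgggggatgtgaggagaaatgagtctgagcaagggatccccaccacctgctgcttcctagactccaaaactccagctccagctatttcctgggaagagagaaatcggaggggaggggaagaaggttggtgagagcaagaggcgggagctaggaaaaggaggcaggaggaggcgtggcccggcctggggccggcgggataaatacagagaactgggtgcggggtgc
Gja10: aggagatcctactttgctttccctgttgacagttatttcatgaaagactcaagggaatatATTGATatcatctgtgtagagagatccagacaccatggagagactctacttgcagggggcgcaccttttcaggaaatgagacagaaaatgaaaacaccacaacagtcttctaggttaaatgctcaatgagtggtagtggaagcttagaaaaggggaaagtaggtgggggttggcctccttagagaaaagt
The Gja10 window held 1 match to ATCAAT, on the opposite strand and starting at base 61 of the window, and the Lhx1 and Calb1 windows held none of the 3 motifs. The windows of Onecut1, Gjd2 and Gjc1, not printed, held none either, and that of Onecut2 was not searched. Among 21418 autosomal protein-coding genes, 6.52% of windows of this length held ATCAAT, 0.738% held ATCGAT and 4.61% held TAATTA. The GC content of the windows was 62.0% for Lhx1, 59.2% for Calb1 and 43.2% for Gja10.

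The 7 genes differed widely in level. Averaged over the 12 libraries, Gjd2 had 21.7 FPKM ± 0.779 (SD, n = 12), with libraries between 20.6 and 23.1, and Calb1 had 13.3 ± 1.44, between 10.9 and 15.9. These were the highest of the set, and neither range touched another member's. Gjc1 had 2.49 FPKM ± 0.288, Onecut1 1.80 ± 0.309, Gja10 1.201 ± 0.241, Lhx1 0.829 ± 0.198 and Onecut2 0.765 ± 0.159. From Gjc1 down to Onecut2 each member's range of libraries overlapped that of the next, so the order of neighbours in that lower set is not resolved by the spread. In percentiles of mean FPKM over autosomal genes, the members lay between 63.8 for Onecut2 and 92.7 for Gjd2.

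**Figure D1:**
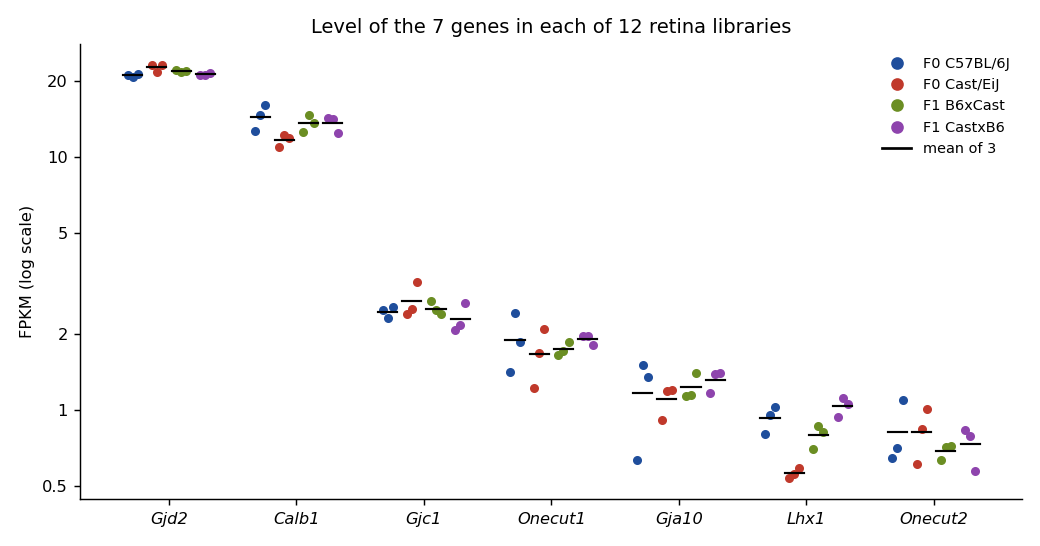
Level of each gene in FPKM (log axis) in the 12 libraries, with 1 point per library, colours for the 4 groups and a bar at the mean of 3. Gjd2 sits between 20.6 and 23.1 FPKM in every library, and for Lhx1, at 0.537 to 0.591, and Calb1, at 10.9 to 12.2, the F0 Cast/EiJ points lie below all other libraries of the gene.

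Lhx1 was the member that differed between the F0 strains. The gene (ENSMUSG00000018698, chr11:84331479-84339517, minus strand, 5 exons in its first GENCODE transcript) had 70.5, 84.9 and 90.8 count equivalents in the 3 F0 C57BL/6J libraries and 47.3, 49.6 and 52.6 in the 3 F0 Cast/EiJ libraries. Every Cast/EiJ value lay below every C57BL/6J value. In FPKM the means were 0.927 ± 0.115 and 0.562 ± 0.0272 (SD, n = 3 each), a Cast/EiJ to C57BL/6J ratio of 0.606. The log2 difference was -0.70 (SE 0.17, limma, adjusted p = 0.0128). It was the only member called of 7, a share of 14.3%, where 33.8% of all 14452 genes tested were called, 2486 higher and 2401 lower in Cast/EiJ; with TMM scaling factors added these were 1695 and 2940, and Lhx1 stayed lower.

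The fall of Lhx1 in Cast/EiJ was also seen in the reads that fit Lhx1 alone. The F0 C57BL/6J libraries had 58, 71 and 70 such read pairs and the Cast/EiJ libraries 29, 26 and 37, or 5.28, 5.97 and 6.75 against 3.52, 3.19 and 3.67 per 1000000 unique hits. The groups did not overlap in this measure either. EdgeR on unique hits gave a log2 difference of -0.81 with an adjusted p of 0.00418. The call rests on few libraries: the adjusted p was 0.0507 without F0 C57BL/6J replicate 2 and 0.0528 without replicate 3. The start of Lhx1 is overlapped on the other strand by 1500016L03Rik, a long non-coding RNA gene, and since the libraries did not keep strand, reads in that overlap cannot be told apart.

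In the F1 libraries no difference between the alleles of Lhx1 was called. The B6 allele had 0.750, 0.749 and 0.510 FPKM in F1 B6xCast and 1.06, 1.06 and 1.21 in F1 CastxB6, and the Cast allele had 0.651, 0.976 and 1.13 in F1 B6xCast and 0.810, 1.16 and 0.901 in F1 CastxB6. In count equivalents the log2 ratios of the Cast to the B6 allele were -0.20, 0.37 and 1.13 in F1 B6xCast and -0.39, 0.14 and -0.42 in F1 CastxB6. The Cast allele was the higher one in 3 of 6 libraries. The log2 allelic difference was 0.10 (SE 0.14, limma, adjusted p = 0.568). Pooled over the F1 libraries, 143 of 281 unique hits were on the Cast allele, a share of 50.9% (95% Wilson interval 45.1 to 56.7), with single libraries between 42.0% and 69.2% at 35 to 58 hits each. At this depth the share of 1 library has a wide interval, from 53.6% to 81.4% for F1 B6xCast replicate 3, the highest of the 6.

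The F0 difference of Lhx1 was compared with its allelic difference in 1 model. The first was lower than the second by 0.81 on the log2 scale (difference -0.81, SE 0.25, limma, adjusted p = 0.0420). Lhx1 was again the only member called of 7, where 14% of 13414 genes tested were called. This call was lost in 10 of the 12 fits that left out 1 library, with adjusted p between 0.00840 without F1 B6xCast replicate 1 and 0.108 without F0 C57BL/6J replicate 3. The second fit that kept it left out F0 C57BL/6J replicate 1, with an adjusted p of 0.0395. Averaged over its alleles, Lhx1 had 0.700, 0.863 and 0.820 FPKM in the F1 B6xCast libraries and 0.934, 1.11 and 1.05 in the F1 CastxB6 libraries, all above the highest F0 Cast/EiJ library at 0.591.

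**Figure D2:**
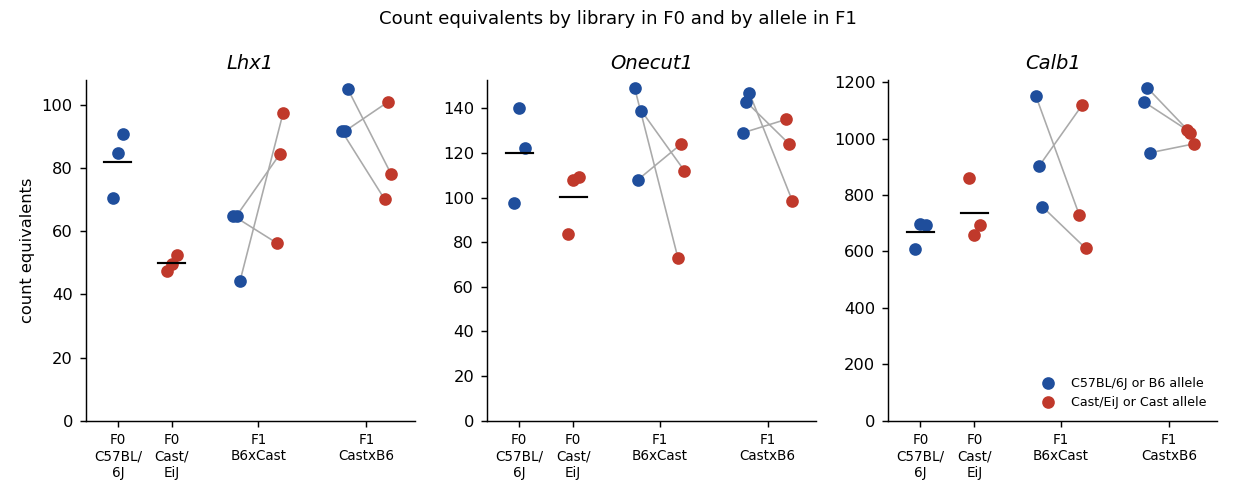
Count equivalents of Lhx1, Onecut1 and Calb1 (linear axis from 0), with 1 point per F0 library, a bar at the mean of 3, and for each F1 library its B6 and Cast alleles joined by a line. For Lhx1 the F0 Cast/EiJ points, at 47.3 to 52.6, lie below the F0 C57BL/6J points, while the F1 lines rise in 3 libraries and fall in 3.

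Onecut1 (ENSMUSG00000043013, chr9:74709728-74739282, plus strand, 2 exons in its first transcript) had no called difference. It had 97.5, 140 and 122 count equivalents in F0 C57BL/6J and 83.8, 108 and 109 in F0 Cast/EiJ, and the groups overlapped. The log2 difference was -0.25 (SE 0.18, adjusted p = 0.315). Between the alleles it was -0.31 (SE 0.13, adjusted p = 0.0716), with the B6 allele the higher one in 4 of 6 libraries. In limma on count equivalents this allelic difference came nearest to the threshold of all members. There 47% of 13414 genes were called and 0 of 7 members. Without F1 B6xCast replicate 2 the allelic difference of Onecut1 was -0.45, with an adjusted p of 0.0154. Without F1 B6xCast replicate 1 it was -0.15, with an adjusted p of 0.362.

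The depth behind Onecut1 is low. The F1 libraries held between 16 and 25 allele-specific read pairs each, and the Cast share ran from 16.0% (4 of 25, interval 6.40 to 34.7) in F1 CastxB6 replicate 3 to 66.7% (12 of 18, interval 43.7 to 83.7) in F1 B6xCast replicate 2. The pooled share was 41.4% (48 of 116, interval 32.8 to 50.5). EdgeR on these hits gave -0.43 with an adjusted p of 0.308. The last exon of Onecut1 is also annotated as part of Gm16551, a non-coding gene on the same strand, so reads there were divided between both genes by the authors' model.

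Onecut2 (ENSMUSG00000045991, chr18:64500018-64558140, plus strand, 2 exons in its first transcript) was measured at 168, 186 and 166 count equivalents in F0 C57BL/6J and 158, 218 and 233 in F0 Cast/EiJ. The Cast/EiJ libraries lay on both sides of the C57BL/6J libraries. The log2 difference was 0.21 (SE 0.16, adjusted p = 0.337), and its sign was not stable: it was -0.02 by edgeR on unique hits. With 1 library left out, limma gave 0.10 to 0.38. The highest, without F0 Cast/EiJ replicate 1, had an adjusted p of 0.0541. Its alleles were near balance, with a log2 difference of 0.02 (SE 0.12, adjusted p = 0.913) and 132 of 268 unique hits on the Cast allele, a share of 49.3% (interval 43.3 to 55.2).

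Calb1 (ENSMUSG00000028222, chr4:15808411-15835211, plus strand, 11 exons in its first transcript) gave a different picture in each deposited measure. In count equivalents it had 610, 698 and 694 in F0 C57BL/6J and 861, 659 and 692 in F0 Cast/EiJ, a log2 difference of 0.14 (SE 0.11, adjusted p = 0.381). In FPKM it had 12.6, 14.6 and 15.9 in F0 C57BL/6J and 10.9, 12.2 and 11.9 in F0 Cast/EiJ. All 3 Cast/EiJ libraries were thus below all C57BL/6J libraries in FPKM, while the groups overlapped in count equivalents. Limma on the deposited log expression gave a log2 difference of -0.30 with an adjusted p of 0.0704, and edgeR on unique hits gave 0.03 with an adjusted p of 0.817.

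Between the alleles, each of the 3 measures of Calb1 pointed to the B6 allele, and the reads that fit a single allele passed the test. Of 1802 unique hits over the F1 libraries, 786 were on the Cast allele, a share of 43.6% (95% Wilson interval 41.3 to 45.9). The share lay between 40.7% and 47.3%, under 50% in 6 of 6 libraries, at 237 to 351 hits each. EdgeR on unique hits gave a log2 difference of -0.33 with an adjusted p of 6.6e-04. It was 44.5% in F1 B6xCast and 42.9% in F1 CastxB6, so the direction held in both crosses.

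The count equivalents of Calb1 in the F1 libraries varied more. The B6 allele had 1150, 903 and 758 in F1 B6xCast and 1130, 1180 and 950 in F1 CastxB6, and the Cast allele had 730, 1120 and 611 in F1 B6xCast and 1030, 1020 and 981 in F1 CastxB6. The Cast allele was the higher one in F1 B6xCast replicate 2 and F1 CastxB6 replicate 3 by this measure, although neither was so in unique hits. The log2 allelic difference was -0.16 (SE 0.12, limma, adjusted p = 0.290). It moved with single libraries, to -0.29 with an adjusted p of 0.0307 without F1 B6xCast replicate 2 and to -0.0496 with an adjusted p of 0.771 without F1 B6xCast replicate 1. The posterior SD that the authors' model gave to the natural log of each Calb1 allele lay between 0.188 and 0.564, against 0.0333 to 0.0426 for Gjd2. The annotation holds 3 Calb1 transcripts, of which 2 are retained introns; their part in these differences was not tested.

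**Figure D3:**
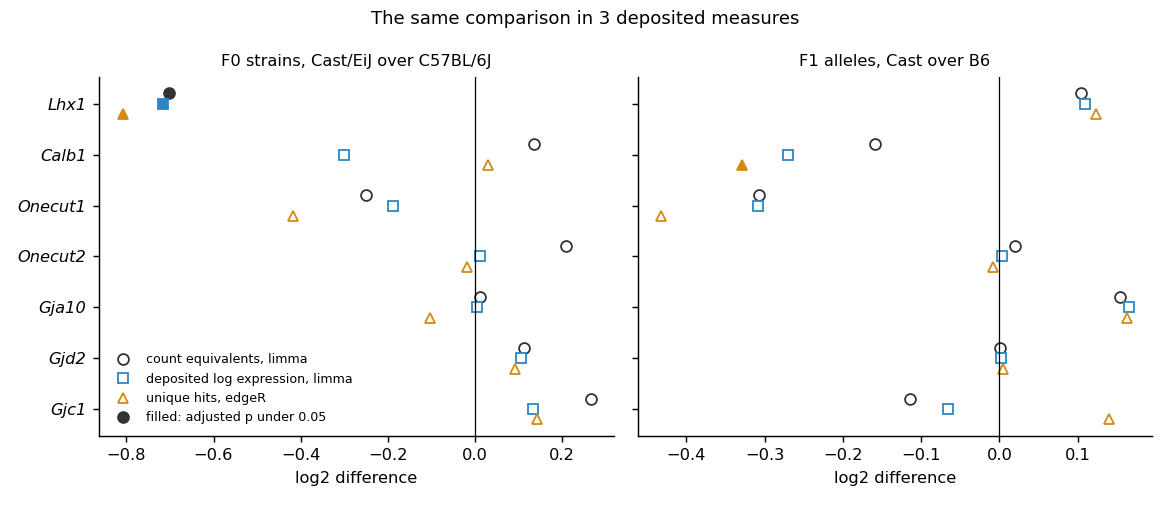
Log2 differences of the 7 genes between the F0 strains (left, Cast/EiJ over C57BL/6J) and between the F1 alleles (right, Cast over B6) in count equivalents, deposited log expression and unique hits, filled where the adjusted p is under 0.05. The symbols for Lhx1 in F0 are filled in all 3 measures, and those for Calb1 spread from -0.30 to 0.14 in F0 and are filled in F1 for unique hits only, at -0.33.

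Of the 3 connexin members none was called between strains or alleles. Gja10 (ENSMUSG00000051056, chr4:32683935-32689735, minus strand, 1 exon in its first transcript) had 16.7, 40.7 and 35.6 count equivalents in F0 C57BL/6J and 24.0, 31.5 and 33.0 in F0 Cast/EiJ. The Cast/EiJ values lay inside the C57BL/6J range, with F0 C57BL/6J replicate 1 the lowest library of all 12. The log2 difference was 0.01 (SE 0.34, adjusted p = 0.984), the widest error of the 7 members. Between the alleles it was 0.15 (SE 0.18, adjusted p = 0.516), and 121 of 232 unique hits, or 52.2% (interval 45.7 to 58.5), were on the Cast allele.

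Gjd2 (ENSMUSG00000068615, chr2:113835337-113839355, minus strand, 2 exons) was the most closely measured member. It had 1130, 1120 and 1150 count equivalents in F0 C57BL/6J and 1240, 1180 and 1260 in F0 Cast/EiJ. Every Cast/EiJ value lay above every C57BL/6J value, but the log2 difference of 0.11 (SE 0.065, adjusted p = 0.209) did not pass the test. In unique hits the groups were separate too, at 89.1 to 90.9 against 94.1 to 99.7 per 1000000 unique hits. Its alleles were even: the B6 allele had 1137 ± 52.8 count equivalents and the Cast allele 1137 ± 35.6 (SD, n = 6), a log2 difference of 0.00071 (SE 0.037, adjusted p = 0.990), and 2904 of 5874 unique hits, or 49.4% (interval 48.2 to 50.7), were on the Cast allele. The 5′ end of Gjd2 overlaps RP23-230H3.2 and A530058N18Rik, long non-coding RNA genes of the other strand.

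Gjc1 (ENSMUSG00000034520, chr11:102660893-102681014, minus strand, 3 exons in its first transcript) had 90.7, 84.9 and 90.4 count equivalents in F0 C57BL/6J and 86.1, 94.1 and 150 in F0 Cast/EiJ. The highest value, from F0 Cast/EiJ replicate 3, stood well above the other 5 libraries. The log2 difference was 0.27 (SE 0.21, adjusted p = 0.361), and 0.02 without that library. Between the alleles it was -0.11 (SE 0.15, adjusted p = 0.551) in count equivalents and 0.14 by edgeR on unique hits, where 154 of 297 hits, or 51.9% (interval 46.2 to 57.5), were on the Cast allele. The direction of the allelic difference of Gjc1 is therefore not set by these data.

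**Figure D4:**
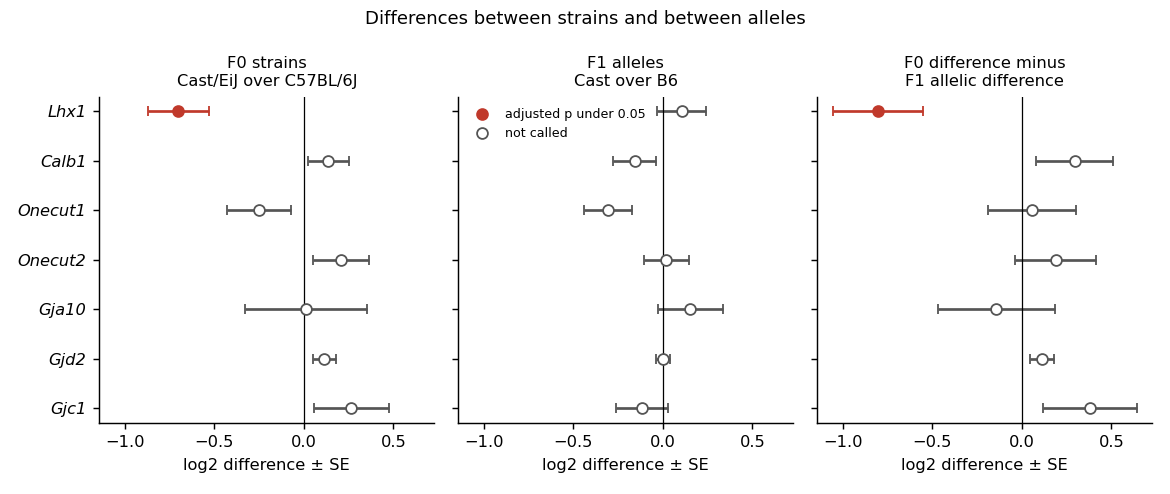
Log2 differences with their SE for the 7 genes between the F0 strains, between the F1 alleles, and for the first minus the second, from limma on count equivalents. Filled red points, Lhx1 at -0.70 in the left and -0.81 in the right panel, had an adjusted p under 0.05.

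**Figure D5:**
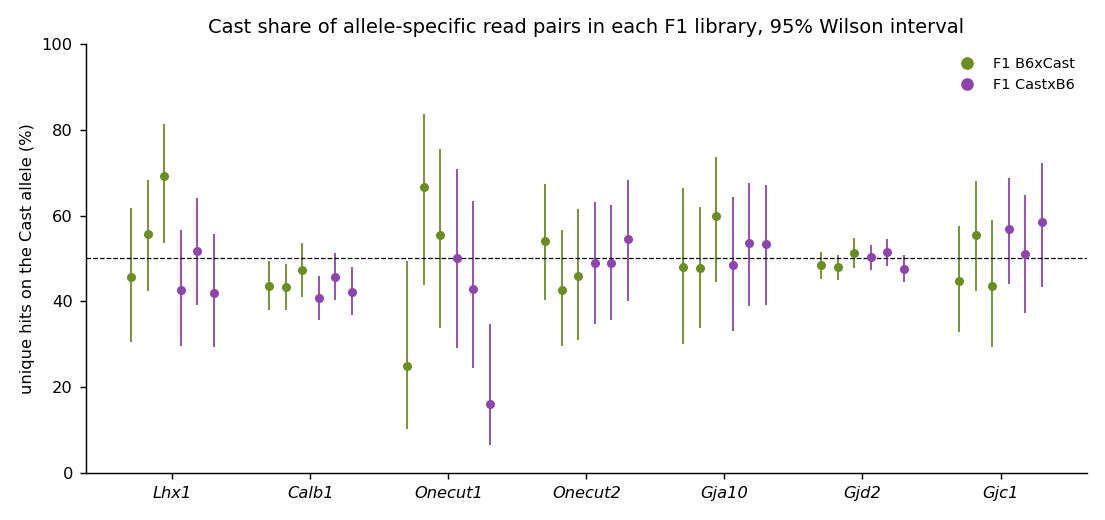
Share of allele-specific read pairs on the Cast allele in percent, for each gene in the 6 F1 libraries, with 95% Wilson intervals, colours for the crosses and a dashed line at 50%. The Calb1 points all lie under the line, between 40.7% and 47.3%, the Gjd2 intervals are the narrowest, and the Onecut1 points spread from 16.0% to 66.7%.

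The reciprocal crosses allow a test for an effect of the parent that an allele came from. No member of 7 was called for the maternal against the paternal allele, where 0.492% of 13414 genes were. Lhx1 was 0.33 higher from the mother (SE 0.14, unadjusted p = 0.0304, limma adjusted p = 0.661), and the other 6 members differed by at most 0.0846 in size. With 1 library left out these were 0.15 (without F1 B6xCast replicate 3) to 0.49 for Lhx1 and up to 0.21 (without F1 B6xCast replicate 2) for the others, and by edgeR on unique hits another member reached 0.46, so Lhx1 does not stand apart here. Between the crosses, with both alleles summed, again no member of 7 was called, where 0.0401% of 14967 genes were. For Lhx1 every F1 CastxB6 library, at 81.0, 96.35 and 91.55 count equivalents per allele, lay above every F1 B6xCast library, at 60.6, 74.75 and 70.9, with a log2 difference of 0.38 (SE 0.12, unadjusted p = 0.0135, limma adjusted p = 0.917). The other 6 members differed by at most 0.27 in size, and by at most 0.38 with 1 library left out.

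Of 18 further genes tied to horizontal cells in development or in the adult, 16 were tested. Between the F0 strains 9 were called, 5 higher and 4 lower in Cast/EiJ, where 33.8% of all genes were called, with a median log2 difference of -0.01 where all genes tested had 0.03. Gad2, a GABA-synthesizing enzyme, rose from 764 ± 52.7 to 1113 ± 81.4 count equivalents (SD, n = 3; log2 0.54, adjusted p = 0.00151). Nefl, the neurofilament light chain that ganglion cells also make, fell by 0.66 on the log2 scale, from 7130 ± 573 to 4527 ± 401 (adjusted p = 5.69e-04). Pax6, a factor of ganglion, amacrine and horizontal cells and the most abundant gene of the list at 218 FPKM, rose by 0.29 (adjusted p = 0.00673).

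Between the alleles 6 of the 16 were called, 1 higher and 5 lower on the Cast allele, a share of 37.5% that is below the 47% over all genes, which divide into 3153 higher and 3152 lower. Gad2 had 832 ± 34.2 count equivalents on the B6 allele and 1198 ± 93.0 on the Cast allele (SD, n = 6; log2 0.52, adjusted p = 5.03e-07), and Sept4, a septin found in horizontal cells, had 1838 ± 102 and 1323 ± 154 (log2 -0.48, adjusted p = 1.55e-06). Between the strains Sept4 fell by 0.40 (adjusted p = 0.00260). For the F0 difference minus the allelic difference 7 of the 16 were called, 4 higher and 3 lower, where 14% of all genes were. Among them, Nefl had a difference of -0.50 (adjusted p = 0.00501), with an allelic difference of -0.16 (adjusted p = 0.0349), and Pax6 had 0.26 (adjusted p = 0.00615), with an allelic difference of 0.03 (adjusted p = 0.535). Onecut3, the remaining ONECUT family gene, fell by 0.42 on the Cast allele (adjusted p = 0.0106) and differed between the strains by -0.41 (adjusted p = 0.102). Ptf1a and Foxn4, factors of horizontal cell precursors, had means of 0.0023 and 0.0145 FPKM over the 12 libraries and were not tested.

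Most other connexin and pannexin genes were barely detected in these retinas. Of 20, 17 had a mean under 0.3 FPKM, and 4 were tested between the F0 strains, with none called. Between the alleles 3 of 4 were called, where 47% of all genes were. Gje1, a connexin gene, had 1.497 ± 1.04 count equivalents on the B6 allele and 12.8 ± 2.53 on the Cast allele (SD, n = 6; log2 2.58, adjusted p = 3.44e-05), at a mean of 14.7 unique hits per library. The filter took the hits of both alleles together and the B6 allele was near the floor, so the size of this difference is uncertain. Gje1 was not tested between the F0 strains, where F0 C57BL/6J had 2.33 ± 2.03 count equivalents (SD, n = 3). Gja1, the connexin of astrocytes and other glia, was 0.50 higher on the Cast allele (adjusted p = 0.0233), and Panx1, a pannexin of retinal neurons, was 0.74 lower (adjusted p = 0.0445). Panx2, a neuronal pannexin, was the most abundant at 11.1 FPKM and had no allele-specific read pair.

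Among 17 genes of proteins that scaffold or regulate gap junctions, 3 of 16 tested were called between the F0 strains, all lower in Cast/EiJ, a share below the 33.8% over all genes, and the median log2 difference was -0.08. Drd4, the dopamine receptor of photoreceptors, fell by 0.62, from 2957 ± 751 to 1897 ± 242 count equivalents (SD, n = 3; adjusted p = 0.0249), and Camk2d, a subunit of the calmodulin-dependent kinase, by 0.27 (adjusted p = 0.0199). Between the alleles 7 of 15 were called, 4 higher and 3 lower on the Cast allele, a share of 46.7% beside 47% over all genes. Adora1, an adenosine receptor, rose there by 0.40 (adjusted p = 7.03e-06) and Camk2a, another subunit of the kinase, fell by 0.29 (adjusted p = 1.14e-04). Calm2, a calmodulin gene and the most abundant at 249 FPKM, differed between the strains by -0.12 (adjusted p = 0.204).

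Among 19 LIM-homeodomain relatives of Lhx1 and their cofactors, 4 of 15 tested were called between the F0 strains, 3 higher and 1 lower in Cast/EiJ, a share of 26.7% beside 33.8% over all genes. Lmo2, a LIM-only protein, rose from 55.6 ± 10.3 to 226 ± 22.0 count equivalents (SD, n = 3; log2 2.01, adjusted p = 2.97e-05), and from 45.8 ± 3.72 on the B6 allele to 161 ± 5.74 on the Cast allele (SD, n = 6; log2 1.79, adjusted p = 5.17e-11). Ssbp4, a cofactor of the LIM complexes and the most abundant at 53.1 FPKM, rose between the strains by 0.94 (adjusted p = 0.00522), and Lhx4, a LIM-homeodomain factor of bipolar cells, fell by 0.37 (adjusted p = 0.0124). Between the alleles 4 of 13 were called, a share of 30.8% beside 47% over all genes, among them Ssbp2 at 0.37 (adjusted p = 3.70e-04) and Isl1, a factor of ganglion, amacrine and bipolar cells, at 0.20 (adjusted p = 0.0188), both higher on the Cast allele.

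Some markers of other cell types were also called between the F0 strains, where 33.8% of all genes tested were called. The 6 ganglion cell markers summed to between 176 and 191 FPKM in F0 C57BL/6J and 144 to 151 in F0 Cast/EiJ, with 2 called lower, and to 172 to 190 in the F1 libraries. The 6 amacrine markers summed to 228 to 249 and 251 to 258, with 2 called higher. Among markers of non-neuronal cells, the 4 of retinal pigment epithelium summed to 8.71 to 10.8 and 3.02 to 4.02 FPKM, and the 3 of microglia to 3.11 to 3.66 and 1.11 to 1.39, each with 2 called lower in Cast/EiJ. Rod markers, with 1 of 5 called higher, summed to 15591 to 15732 and 16622 to 17406. Of the other lists, 1 of 3 cone, 1 of 2 astrocyte, 1 of 3 vascular and 1 of 2 blood markers tested were called lower, 1 higher and 1 lower of 6 bipolar and of 4 Mueller glia markers, and 0 of 3 lens markers. No marker of these lists was under 0.1 FPKM in all 12 libraries, and their part in the Lhx1 difference was not tested.

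Across the 12 libraries, the genes whose levels most resembled each member were sought among the 10632 or 10633 other autosomal genes whose mean reached 1 FPKM, on the log2 scale. For Lhx1 they were Egfem1 (Pearson's r = 0.98) and Scrn1 (0.94), and for Calb1 Nap1l5 (0.97) and Pid1 (0.95). Onecut1 was followed by Plin3 (0.92) and Ankrd29 (0.92), and Onecut2 by Emg1 (0.88) and Khdrbs2 (0.87). Among connexins, Gja10 was followed by Pde4b (0.91) and Pdp1 (0.90), Gjd2 by Zdhhc14 (0.94) and Strn3 (0.94), and Gjc1 by Xpnpep3 (0.89) and Gsr (0.81). The points share strain and library, and the best of so many genes is high by construction, so these r are descriptions only.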

How the data were processed

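Polyadenylated RNA was sequenced from 12 retina libraries, without strand. The authors trimmed reads with Trim Galore 0.2.6 and mapped them with Bowtie 0.12.9 to strain or hybrid transcriptomes (NCBI37), per the labels and the methods. From MMSEQ they deposited 4 values per gene and column. The signal values, called count equivalents, were normalized by the authors and are not whole. The natural log of expression and its posterior SD (another measure) were estimated by the authors. Unique hits are a count deposited without normalization. The authors' table of their own model comparison, with 36 columns that repeat log values and SDs, was not used.

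Limma 3.58.1 (R 4.3.3) was fitted to log2 of count equivalents plus 1 over autosomal genes. The F0 strains and the F1 crosses were fitted over genes with at least 10 in 3 libraries. The F1 alleles were fitted in 1 model with the F0 libraries over genes with a mean of at least 10 unique hits, with the library as a block (consensus correlation 0.1354). P-values were adjusted over all genes tested by the Benjamini-Hochberg method, with a threshold of 0.05. EdgeR 4.0.16 and DESeq2 1.42.0 on unique hits, pseudocounts of 0.1 and 5, other filters, TMM factors, the deposited log expression, a replicate block and leaving out each library were alternatives. The edgeR fit of the F1 alleles had no library block and did not pair the alleles of a library. The fits were also run on simulated unique hits. These were drawn without a library effect, so the runs do not check the library block or the pairing of alleles.

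Members and gene lists were chosen with earlier results of these data known. All members are named; from each list the text names the called genes with up to the 3 largest differences between strains and between alleles, and the gene with the highest mean FPKM, except that some items are not reported here. Sept4 was matched by gene ID, as its symbol reads as a date in the tables. Likeness used log2 of FPKM plus 0.1 and left out Gm and Rik models. Promoters came from the NCBIM37 genome and transcripts from GENCODE vM1. Replicates are separate pools of retinas. Wilson intervals at 95% cover counting error only.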

Additional observations from a re-analysis of the deposited data

Results flagged for a closer look

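Lhx1 differed more between the F0 strains than between the F1 alleles, by -0.81 on the log2 scale (limma, adjusted p = 0.0420). This was a test of the difference itself. In the same direction, edgeR on unique hits, without a library block, gave -0.94 with an adjusted p of 0.0182. The alternatives other than leaving out a library gave adjusted p between 0.0182 and 0.0989. Among 14 sets of 6 F1 libraries, the allele ratios and the Cast shares of each member, no library stood apart from the others by Dixon's criterion, which chance alone meets in about 1 set of 20.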

How the results depend on the processing

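Lhx1 remained called between the F0 strains in all 10 alternatives that kept every library. Leaving out 1 library gave -0.81 to -0.63, and from 0 to 1 of 7 members called. For the F0 difference minus the allelic difference, no member was called with no filter, with the deposited log expression with or without posterior SD weights, and under the stricter filter, where Lhx1 was not among the 2 members tested (0 called in each); edgeR on unique hits called 2, Lhx1 and Calb1 (0.35, adjusted p = 0.0316), and leaving out 1 library left 0 to 1. Between the alleles edgeR on unique hits called 1 member, Calb1, and leaving out 1 library gave 0 to 2. No member was called for the parental or the cross difference in any alternative run.

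Values that were not called changed sign as follows. Between the strains, Calb1 was -0.30 with the deposited log expression and -0.30 with its weights; Onecut2 was -0.0507 with the weights, -0.0187 by edgeR and -0.0123 by DESeq2; Gja10 was -0.00047 with a pseudocount of 5, -0.0681 with TMM factors, -0.18 with the weights, -0.10 by edgeR and -0.10 by DESeq2, and -0.37 to 0.25 with 1 library left out. Between the alleles, Onecut2 was -0.00795 by edgeR, Gjd2 -0.0032 with the weights and Gjc1 0.14 by edgeR; with 1 library left out Lhx1 was -0.0688 to 0.26, Onecut2 -0.0576 to 0.0808 and Gjd2 -0.0285 to 0.0338. For the difference of both, Calb1 was -0.0304 with the deposited log expression, Onecut2 -0.13 with the weights and -0.0211 by edgeR, and Gjc1 -0.00695 by edgeR; with 1 library left out Onecut1 was -0.10 to 0.20 and Gja10 -0.52 to 0.0945. The cause was not tested. The Cast/EiJ to C57BL/6J ratio of Calb1 was 0.809 in FPKM and 1.10 in count equivalents.

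Over all genes, the F0 count of 4887 became 3161 with no filter and 3498 to 4573 with 1 library left out. The 66 parental calls became 31 with weights, 39 by edgeR and 38 with the library as a fixed term. The 6 cross calls became 24 with no filter, 0 with weights (4 by edgeR), 12 by DESeq2 and 5 to 12 with 1 library left out. The main fits did not pair samples by replicate number. The r of same-numbered deviations was 0.326, 0.030 and 0.137 in F0, all positive, and -0.103, -0.118 and -0.056 in F1. The replicate block gave 6376 F0 calls in place of 4887 and changed no member's call. Whether same-numbered F0 libraries share a batch was not tested. Depth limits the alleles of Onecut1 most, at 16 to 25 read pairs a library.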
